A study of Mus musculus with 20 samples.

Results

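The genes described here encode proteins that coat lipid droplets, fill them and empty them. They were chosen by name, and all 10 were found among the 14456 genes listed for 20 libraries. They are the droplet coat genes Plin2 and Plin3, the lipase genes Lpl, Lipa and Pnpla2, the fatty acid carrier genes Fabp4 and Fabp5, and the ester-forming enzyme genes Dgat1, Dgat2 and Soat1. The libraries were made from total RNA of bone marrow-derived macrophages (BMDM) of male C57BL/6J mice aged 8 to 12 weeks, grown for 6 days with macrophage colony-stimulating factor. In the glucose experiment, high glucose cells (n = 4 libraries) were held at 25 mM glucose for 24 h, while normal glucose cells (n = 4) had 5.5 mM, topped up with 19.5 mM mannitol, which is a sugar alcohol. In the exosome experiment, naive BMDM received for 24 h PBS (n = 4), or exosomes at 2000000000 particles per ml from BMDM cultured in normal glucose (BMDM-NG-exo, n = 4) or in high glucose (BMDM-HG-exo, n = 4). Exosomes are small vesicles that cells release, and each exosome sample came from a preparation of its own. Nothing in the labels ties the libraries to single mice, so the p-values measure the spread between libraries, which may be technical in part.

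Macrophages take up lipoproteins and break down their cholesterol esters and triglycerides in lysosomes. What is not burnt or exported is esterified again and kept in droplets in the cytosol, from which lipases release it. Macrophages filled with such droplets are the foam cells of atherosclerotic lesions.

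Each value below is a normalized count, for which the authors divided the reads of a gene by 1 size factor per library. The libraries held between 34016445 and 56310712 reads. The PBS libraries were among the shallower ones, with 34016445 to 44693640 reads, against 40751064 to 56310712 with BMDM-NG-exo and 42356003 to 45905440 with BMDM-HG-exo. All 7 macrophage markers looked for were listed. Their normalized counts summed to 620993 to 695733 in a normal glucose library and to 798427 to 868348 in a high glucose library. The PBS libraries had sums of 785780 to 831767, the BMDM-NG-exo libraries 710680 to 766373, and the BMDM-HG-exo libraries 727963 to 751990. None of 6 adipocyte markers was listed, nor any of the markers of B cells, T cells, dendritic cells or erythroid cells. The lowest median over the libraries of any listed gene was 11 reads, so a gene not listed may be low rather than absent. Summed counts of the listed markers of neutrophils (3 of 6, 65.2 to 145.1), of stroma (5 of 6, 123.8 to 372.5) and of endothelium (2 of 3, 280.3 to 456.1) were low in every library. The endothelial sum holds Pecam1 and Kdr only, as Cdh5 was not listed. It was nonetheless higher in each high glucose library (329.3 to 456.1) than in any normal glucose library (289.6 to 327.1). Of all single genes tested, 9.18% stood higher in this way. The part of this sum in the high glucose results was not tested. In bulk RNA, a different number of cells of a type and a different amount of RNA per cell cannot be told apart.

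RefSeq promoter sequences (build GRCm38.p6) were at hand for 5 of the 10 genes. The 250 bases before the start are shown for Plin2, Lipa and Soat1, the genes with such a sequence that were called higher in at least 1 comparison below. All of these genes lie on the minus strand, and the sequences read 5′ to 3′ in the direction of transcription. The window of Plin2 is chr4:86670060-86670309, that of Lipa is chr19:34527475-34527724 and that of Soat1 is chr1:156474329-156474578. Capitals mark TGACCT, the reverse complement of AGGTCA, a motif to which nuclear receptors bind.

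Plin2: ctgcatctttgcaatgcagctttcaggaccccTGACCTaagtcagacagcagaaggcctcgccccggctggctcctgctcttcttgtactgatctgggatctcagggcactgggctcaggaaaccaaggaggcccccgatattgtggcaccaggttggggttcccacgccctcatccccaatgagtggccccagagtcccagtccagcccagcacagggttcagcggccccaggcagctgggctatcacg

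Lipa: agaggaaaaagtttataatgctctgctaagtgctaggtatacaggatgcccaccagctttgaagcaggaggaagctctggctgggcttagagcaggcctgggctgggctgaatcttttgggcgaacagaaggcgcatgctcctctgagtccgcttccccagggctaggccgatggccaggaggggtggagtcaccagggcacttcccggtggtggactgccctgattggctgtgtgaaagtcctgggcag

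Soat1: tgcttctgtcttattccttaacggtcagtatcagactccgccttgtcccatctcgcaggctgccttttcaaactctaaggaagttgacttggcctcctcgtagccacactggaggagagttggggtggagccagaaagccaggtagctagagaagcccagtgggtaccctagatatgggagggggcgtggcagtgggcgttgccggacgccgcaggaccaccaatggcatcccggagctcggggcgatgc

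The windows were searched on both strands for AGGTCA, for its direct repeats with 1 and with 4 bases between the copies, for the E-box CACGTG, for the wider E-box TCACGTGA and for the GC box GGGCGG. The letters AGGTCA occurred in the window of Plin2 alone among the 5 genes, with its outermost base 218 bases before the start, and 14% of all 32851 promoters in the table hold it. GGGCGG occurred 3 times in the window of Plin3, where neighbouring matches lie 5 bases apart and overlap, and 2 times in that of Pnpla2, against 32.7% of all promoters. No window held CACGTG (6.02% of all promoters), TCACGTGA (0.785%) or either direct repeat (0.0335% and 0.0152%). In the Plin2 sequence, however, a CACGTG begins 4 bases before the start and runs across it, outside the window printed, which was seen only on reading the sequence. Over the whole 300 bases in the table, 7.15% of all promoters hold CACGTG. These are matches of letters and say nothing about binding in these cells.

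Per length, Plin2 was the most abundant of the 10 transcripts, and Dgat2 was close to absent. With PBS, Plin2 stood at 10230 ± 211 normalized counts per kb of annotated exon (SD, n = 4), ahead of Lipa at 6559 ± 128 and Lpl at 4559 ± 72.9. Soat1 (1851 ± 69.6), Fabp5 (1811 ± 100.1) and Pnpla2 (1707 ± 74.1) followed within about the spread of their libraries. Plin3 stood at 755.1 ± 48.2, Dgat1 at 106.6 ± 9.24, Fabp4 at 72.3 ± 6.49 and Dgat2 at 7.29 ± 2.67. The order of the lower genes depends on the length used. Divided instead by the longest principal transcript, Fabp5 stood at 6545 ± 362 per kb and above Soat1 at 2165 ± 81.4, and Fabp4 at 362 ± 32.5 stood above Dgat1 at 172.5 ± 15.0. In normal glucose, Lpl (14575 ± 397) and Lipa (14453 ± 276) could not be separated on that scale.

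**Figure D1:**
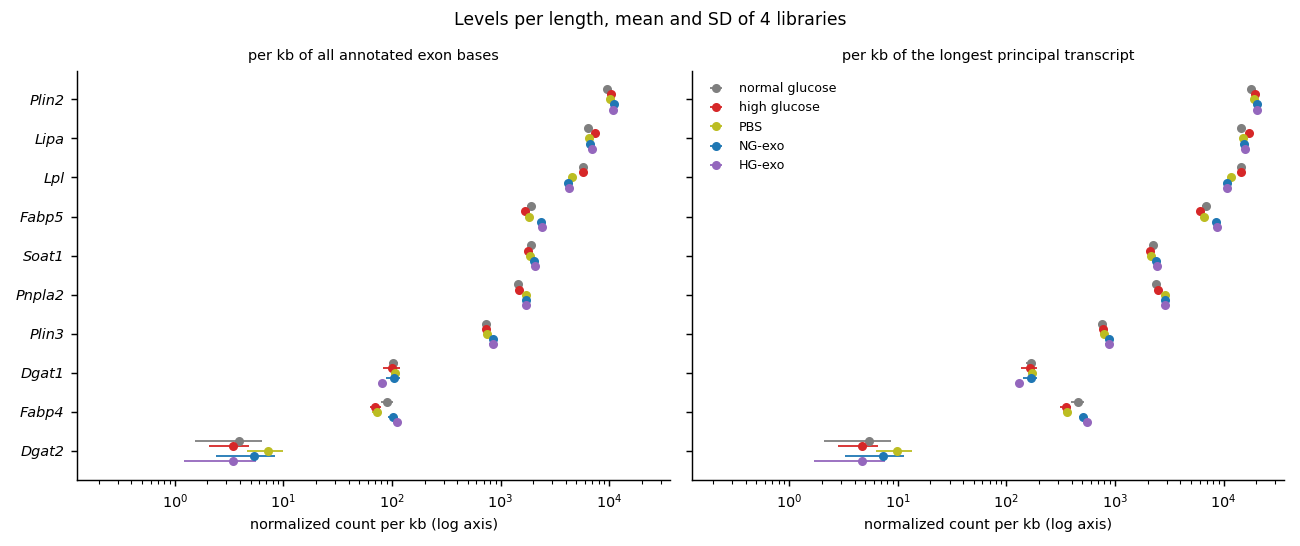
Normalized counts per kb of annotated exon (left) and per kb of the longest principal transcript (right) on log axes, for each gene and each of the 5 groups. Points are means and lines SDs of 4 libraries, hidden where shorter than the point. Plin2, Lipa and Lpl lead on both scales, and Dgat2 lies lowest.

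Across the comparisons, the fatty acid carrier genes Fabp4 and Fabp5 rose with either exosome, the largest called changes of the 10 genes there. In high glucose both were lower, in calls that rest on single libraries and settings, while Lipa rose under every alternative run. In high against normal glucose, 4 of the 10 genes were called at an adjusted p under 0.05, Lipa and Plin2 higher and Fabp5 and Fabp4 lower. Of all 14425 genes tested in this comparison, 13.3% were called, with 1116 higher (7.74%) and 798 lower (5.53%). Quantile normalization turned that split to 789 higher and 872 lower. With BMDM-NG-exo against PBS, Fabp4 and Fabp5 were called higher, where a call also needed a log2 fold change of at least 0.15 in size and 3% of 14413 genes were called (0.888% higher). With BMDM-HG-exo against PBS, Fabp4, Fabp5 and Soat1 were called higher, against 4.84% of all genes (1.76% higher). Both exosome comparisons share the PBS libraries, so they are not independent of each other. The median log2 fold change of the 10 genes was 0.01 in high glucose, 0.07 with BMDM-NG-exo and 0.08 with BMDM-HG-exo, against -0.003, 0.005 and 0.003 over all genes tested. The tests were limma's moderated tests on log2 of the normalized count plus 1, two-sided and adjusted by the Benjamini-Hochberg method across every gene tested, and every fold change below is on that scale.

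**Figure D2:**
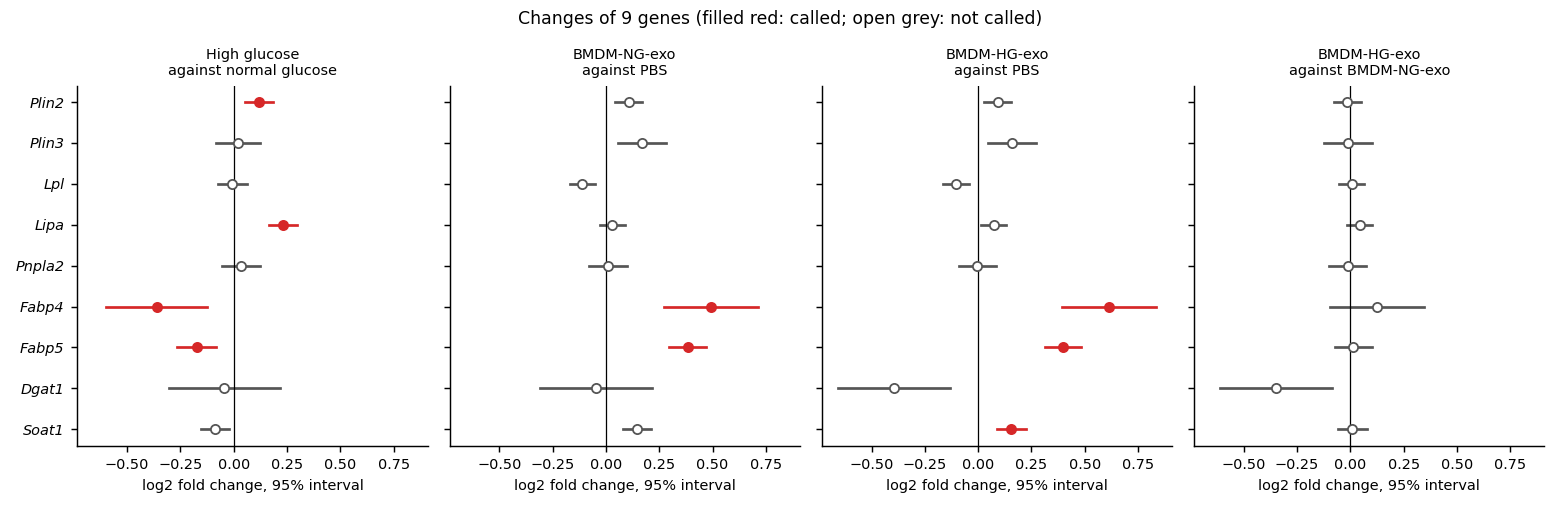
Log2 fold change (point) with its 95% interval (line) for 9 of the genes in 4 comparisons, with called genes in filled red and the others in open grey. Fabp4 and Fabp5 lie left of 0 in high glucose and right of 0 with both exosomes against PBS. Dgat2 is left out because its intervals reach from -2.31 to 1.32.

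Plin2 (chr4:86648386-86670060, minus strand) encodes the coat protein that is most tied to droplets in macrophages. The normal glucose libraries read 32639, 33655, 34625 and 33949 normalized counts, and those in high glucose 36705, 36113, 38200 and 35572. Every high glucose library stood above every normal glucose library, as was the case for 9.18% of all genes. The log2 fold change was 0.12 ± 0.03 (SE, adjusted p = 0.00947, limma), a rise of 8.68%. The call was lost without high glucose replicate 4 (adjusted p = 0.0683), under quantile normalization (log2 fold change 0.07, adjusted p = 0.111), without the variance trend (0.154) and with a block for the library numbers 1 and 6 that both groups share (0.252). It was also lost with the fold limit of 0.15 that calls in the exosome experiment needed. In the exosome experiment, Plin2 read 36500, 36471, 35820 and 34923 with PBS, 39059, 39683, 38720 and 37268 with BMDM-NG-exo, and 39182, 39907, 37755 and 36331 with BMDM-HG-exo. The BMDM-NG-exo libraries all lay above the PBS libraries, as was the case for 3.64% of all genes, while 1 BMDM-HG-exo library fell within them. Neither difference passed the test, at log2 fold changes of 0.11 (adjusted p = 0.0508, limma) and 0.09 (adjusted p = 0.0878, limma), which also lie under the fold limit. Under quantile normalization they were 0.13 (adjusted p = 0.0105, limma) and 0.12 (adjusted p = 0.0168, limma). These passed the adjusted p but stayed under the fold limit and were not called.

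Plin3 (chr17:56277476-56292873, minus strand) encodes a coat protein found in the cytosol and on newly forming droplets. It ran from 2598 to 2962 in normal glucose and from 2621 to 2923 in high glucose, so the groups overlapped, and the log2 fold change of 0.02 had a 95% interval from -0.08 to 0.13. With PBS it read 2956, 3004, 2596 and 2878, with BMDM-NG-exo 3212, 3395, 3161 and 3086, and with BMDM-HG-exo 3312, 3407, 3234 and 2834. The BMDM-NG-exo libraries stood above all of the PBS libraries, as was the case for 3.64% of all genes, and 3 of the BMDM-HG-exo libraries did. The log2 fold changes of 0.17 and 0.16 did not pass the test (adjusted p = 0.0895 and 0.0888, limma). With the date in the library titles as a block, both did (adjusted p = 0.0325 and 0.0358), and without BMDM-HG-exo replicate 4 the comparison of BMDM-HG-exo with PBS also did, at 0.22 (adjusted p = 0.0107). Per kb of exon, Plin2 exceeded Plin3 by 12.2 to 14.9 times in each of the 20 libraries.

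**Figure D3:**
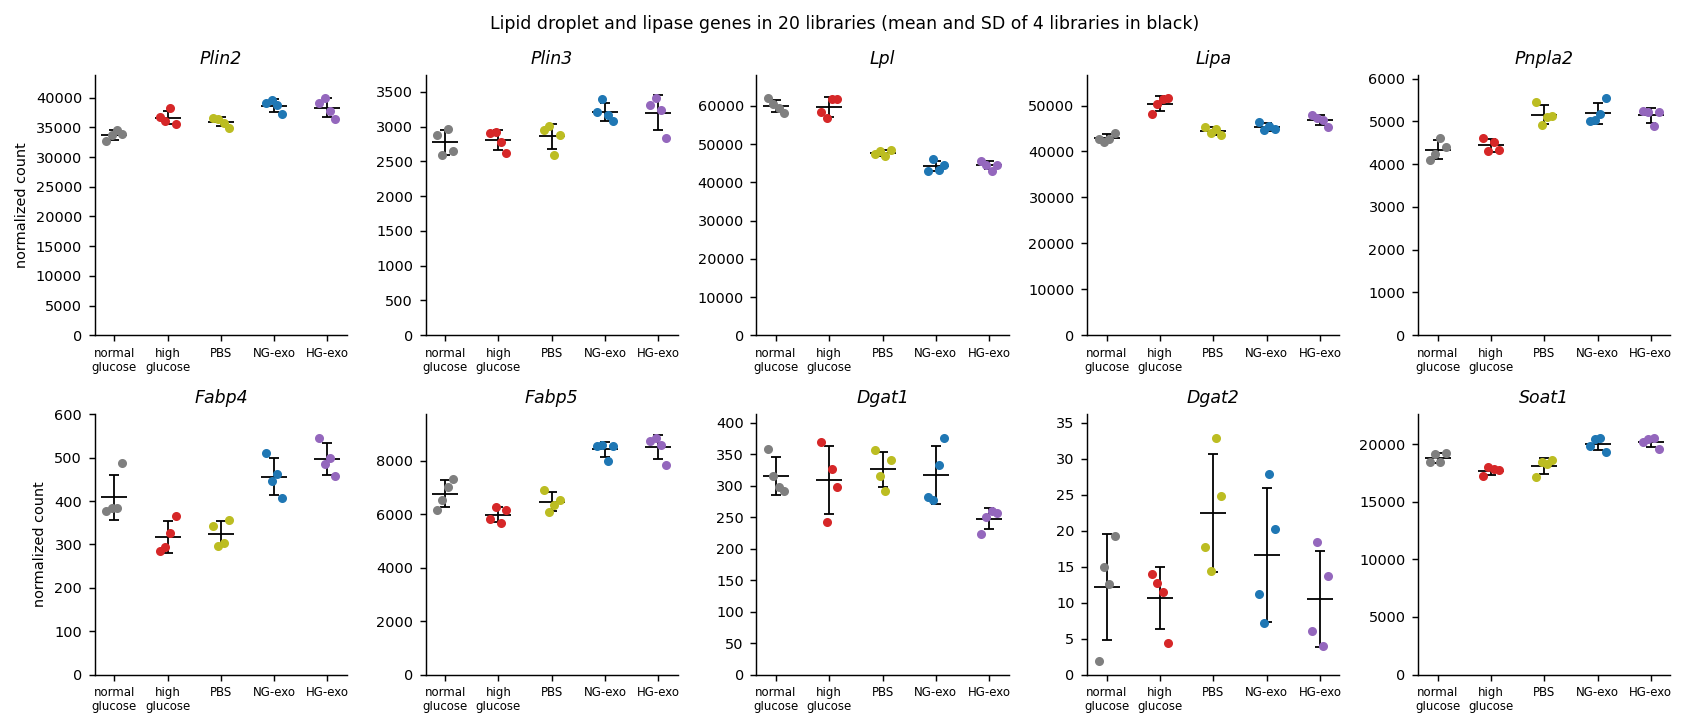
Normalized counts of each of the 10 genes in every library, on axes that start at 0. Each point is 1 library, and the black bar and whiskers give the mean and SD of 4 libraries. Lipa is highest in high glucose, Lpl is higher throughout the glucose experiment, and Fabp4 and Fabp5 are higher with either exosome than with PBS.

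Lipa (chr19:34492318-34527474, minus strand) encodes lysosomal acid lipase, which splits the cholesterol esters and triglycerides of engulfed lipoproteins. Its counts were 42755, 42092, 42757 and 44046 in normal glucose, against 48046, 50425, 51425 and 51581 in high glucose. The high glucose libraries all stood higher, as was the case for 9.18% of all genes, with a gap that was wider than the range within either group. The log2 fold change was 0.23 ± 0.03 (SE, 95% interval 0.17 to 0.30, adjusted p = 1.5e-06, limma), a rise of 17.3%. Lipa was called under all alternatives run for this comparison, including each library left out in turn (log2 fold change 0.22 to 0.25), with adjusted p from 2.06e-11 to 0.0275. Its size depended on the scaling, for quantile normalization reduced it to 0.09 (adjusted p = 0.0138). The summed macrophage markers were higher in high glucose as well, in every library, and their part in this result was not tested. In the exosome experiment, Lipa read 45412, 44009, 44955 and 43506 with PBS, 46472, 44638, 45557 and 44846 with BMDM-NG-exo, and 47863, 47199, 46746 and 45239 with BMDM-HG-exo. The 3 groups overlapped, and the log2 fold changes against PBS were 0.03 (adjusted p = 0.739, limma) and 0.07 (adjusted p = 0.161, limma).

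The effect of high glucose on Lipa was larger than that of the exosome's origin (BMDM-HG-exo against BMDM-NG-exo), which was 0.04 (95% interval -0.01 to 0.10). In a fit of all 20 libraries, those effects differed by 0.19 ± 0.04 on the log2 scale (SE, adjusted p = 0.00286, limma). Lipa was the only 1 of the 10 genes called in that test, which called 4.74% of all 14449 genes, and 3.27% in the direction of Lipa. The call held with each library left out (0.17 to 0.21), but not under quantile normalization (0.06, adjusted p = 0.402). For Fabp4 (-0.49, adjusted p = 0.0665), Plin2 (0.14, adjusted p = 0.0712) and Fabp5 (-0.19, adjusted p = 0.0977) the same difference missed the threshold in limma. The effects come from separate sets of libraries, so a difference between the experiments cannot be told apart from one between the agents.

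Lpl (chr8:68880491-68907448, plus strand) encodes lipoprotein lipase, the secreted enzyme that frees fatty acids from the triglycerides of lipoproteins. The normal glucose libraries read 61984, 60446, 59338 and 58142, those in high glucose 58402, 56698, 61876 and 61880. These groups overlapped, with a log2 fold change of -0.01 and a 95% interval from -0.07 to 0.06, though quantile normalization lowered it to -0.08 and called it (adjusted p = 0.0471, limma). With PBS, Lpl read 47410, 48232, 46872 and 48546, with BMDM-NG-exo 43060, 46099, 43326 and 44613, and with BMDM-HG-exo 45631, 44555, 43056 and 44580. Both exosome groups lay wholly below PBS, which was so for 4.63% of all genes with BMDM-NG-exo and for 5.59% with BMDM-HG-exo. The log2 fold changes of -0.11 (adjusted p = 0.0251, limma) and -0.10 (adjusted p = 0.0264, limma) passed the adjusted p, as did 3.34% and 5.4% of all genes, but stayed under the limit of 0.15 on the fold change and were not called. Under quantile normalization they were -0.06 (adjusted p = 0.245, limma) and -0.08 (adjusted p = 0.0817, limma), and without the variance trend the adjusted p was 0.251 and 0.204.

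Lpl separated the experiments more than it separated any groups within them. All 8 glucose libraries (56698 to 61984) stood above all 12 libraries of the exosome experiment (43056 to 48546). Pnpla2 showed the opposite, with 4087 to 4617 in the glucose experiment and 4890 to 5542 in the exosome experiment. Of all 14449 genes, 0.969% did not overlap between the experiments (0.339% higher and 0.63% lower in the glucose experiment), and the other 8 genes described here overlapped. The labels give no further detail on how the experiments differed, and no test was made of this difference.

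Within a library, the ratio of Lpl to Lipa per kb of exon does not depend on the size factor. Normal glucose libraries had ratios of 0.854 to 0.938, and high glucose libraries 0.728 to 0.787. The PBS libraries had ratios of 0.675 to 0.722, the BMDM-NG-exo libraries 0.600 to 0.668, and the BMDM-HG-exo libraries 0.596 to 0.638. The ratio was thus lower in every high glucose library than in any normal glucose library, and lower in every exosome library than in any PBS library. In high glucose the log2 fold change was -0.01 for Lpl and 0.23 for Lipa. The ratios of Plin2 to Plin3, Fabp5 to Fabp4 and Dgat1 to Dgat2 separated the libraries in neither of these ways. The ratio of Fabp5 to Fabp4 was narrowly lower in each BMDM-HG-exo library (20.12 to 23.00) than in any PBS library (23.03 to 26.33). With BMDM-NG-exo (21.09 to 26.45) it overlapped PBS. How often ratios of other gene pairs do so was not counted.

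Pnpla2 (chr7:141455198-141460743, plus strand) encodes adipose triglyceride lipase, which starts the breakdown of the triglyceride stored in droplets. It passed the test in none of the comparisons within an experiment. Its log2 fold change in high glucose was 0.03 (95% interval -0.06 to 0.12), with BMDM-NG-exo against PBS 0.01 (-0.08 to 0.10), and with BMDM-HG-exo against PBS -0.00 (-0.09 to 0.08). Within the exosome experiment its libraries spanned 4921 to 5460 with PBS, 5015 to 5542 with BMDM-NG-exo and 4890 to 5233 with BMDM-HG-exo.

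Fabp4 and Fabp5 encode small proteins that carry fatty acids through the cytosol, and they lie 187 kb apart on chromosome 3. GENCODE also lists a processed pseudogene of Fabp5, and reads that both share could have been lost or split in the authors' counting. Fabp5 (chr3:10012548-10016607, plus strand) read 6160, 6542, 7035 and 7299 in normal glucose, against 5808, 6280, 5675 and 6171 in high glucose. The means were lower in high glucose, but 2 of its libraries lay within the normal glucose range. The log2 fold change was -0.17 ± 0.05 (SE, adjusted p = 0.00806, limma), and the call was lost without normal glucose replicate 6 (adjusted p = 0.0555), without the variance trend (0.188) and with the block for shared numbers (0.101). With PBS, Fabp5 read 6916, 6065, 6337 and 6521, with BMDM-NG-exo 8562, 8576, 7996 and 8563, and with BMDM-HG-exo 8738, 8868, 8579 and 7854. Each exosome library exceeded each PBS library, a separation that 3.64% of all genes showed for BMDM-NG-exo and 4.41% for BMDM-HG-exo. Fabp5 rose by 30.5% with BMDM-NG-exo (log2 fold change 0.38 ± 0.04 SE, adjusted p = 1.59e-07, limma). It rose by 31.7% with BMDM-HG-exo (0.40 ± 0.04 SE, adjusted p = 3.85e-08, limma). Both calls held under all alternatives run, with each library left out and without the trend.

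Fabp4 (chr3:10204088-10208576, minus strand) is the carrier best known from adipocytes and is also made by macrophages. None of the other adipocyte markers looked for was listed. It read 378, 384, 383 and 488 in normal glucose, against 285, 293, 325 and 365 in high glucose. The high glucose libraries were all lower, which was so for 7.11% of all genes. The log2 fold change was -0.36 ± 0.12 (SE, adjusted p = 0.0347, limma), a fall to 0.778 of the normal glucose level. This call was lost without normal glucose replicate 6 (adjusted p = 0.161), which read highest in its group, and without high glucose replicate 1 (0.107), 2 (0.101) or 4 (0.0558). It was lost under quantile normalization (0.0717), without the variance trend (0.119) and with the block (0.145).

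With PBS, Fabp4 read 342, 297, 303 and 356, with BMDM-NG-exo 511, 445, 462 and 407, and with BMDM-HG-exo 546, 485, 499 and 457. The exosome libraries of both kinds stood above all of the PBS libraries, which was so for 3.64% of all genes with BMDM-NG-exo and 4.41% with BMDM-HG-exo. Fabp4 was 1.4-fold higher with BMDM-NG-exo (log2 fold change 0.49 ± 0.11 SE, adjusted p = 0.00457, limma) and 1.53-fold higher with BMDM-HG-exo (0.61 ± 0.11 SE, adjusted p = 0.000169, limma). Both calls held without each library in turn. The macrophage marker sum was lower in every exosome library than in any PBS library, and the PBS libraries were shallower than most exosome libraries, and the part of neither was tested. Between the exosomes, Fabp4 was 0.12 higher with BMDM-HG-exo on the log2 scale, with a 95% interval from -0.10 to 0.34. Within each of the 4 dates that pair these libraries it was higher with BMDM-HG-exo, by 35.5 to 49.9 normalized counts, as were Lipa and 7.77% of all genes. With the date as a block the interval was -0.09 to 0.34 for Fabp4 (adjusted p = 0.884, limma) and -0.00 to 0.09 for Lipa (adjusted p = 0.693, limma).

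**Figure D4:**
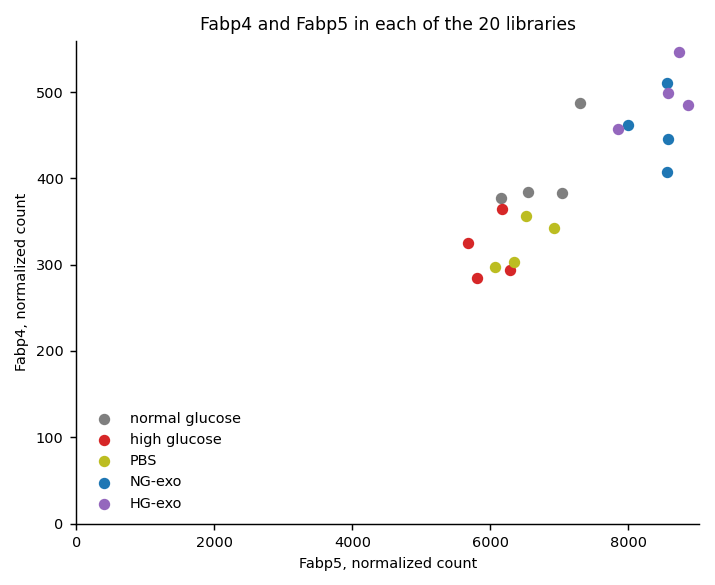
Normalized count of Fabp4 against that of Fabp5, 1 point per library and both axes from 0, with 4 points in each of the 5 groups. The 8 exosome-treated libraries lie to the right of all others, from 7854 to 8868 for Fabp5.

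Soat1 (chr1:156424525-156474331, minus strand) encodes the enzyme that esterifies cholesterol for storage in droplets. In high glucose it read 17187, 17998, 17837 and 17730, while the normal glucose libraries read 18408, 19109, 18405 and 19250. Every high glucose library was lower, which was so for 7.11% of all genes. The log2 fold change of -0.09 missed the threshold in limma (adjusted p = 0.0761), while DESeq2 (0.0258) and quantile normalization (-0.13, adjusted p = 0.00176) called it. With PBS, Soat1 read 17123, 18476, 18280 and 18616, with BMDM-NG-exo 19871, 20442, 20523 and 19330, and with BMDM-HG-exo 20192, 20410, 20565 and 19533. Both exosome groups stood above PBS without overlap, as did 3.64% of all genes with BMDM-NG-exo and 4.41% with BMDM-HG-exo. Soat1 rose by 11.4% with BMDM-HG-exo (log2 fold change 0.16 ± 0.03 SE, adjusted p = 0.00185, limma). With BMDM-NG-exo the log2 value was 0.145 (adjusted p = 0.00592, limma), just under the limit of 0.15, so it was not called. The calls on either side of the limit turn on single libraries: BMDM-HG-exo against PBS fell under it without PBS replicate 1 or BMDM-HG-exo replicate 2 or 3 (0.128 to 0.1495), and BMDM-NG-exo against PBS passed it without PBS replicate 2 or 4 or BMDM-NG-exo replicate 4 (0.155 to 0.163). Without the variance trend the BMDM-HG-exo call was lost (adjusted p = 0.0851).

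Dgat1 and Dgat2 encode the enzymes that add the last fatty acid to a triglyceride. Dgat1 (chr15:76502015-76511953, minus strand) read 358, 315, 297 and 291 in normal glucose, against 369, 241, 326 and 297 in high glucose, which overlapped. With PBS it read 356, 315, 292 and 340, with BMDM-NG-exo 282, 277, 332 and 376, and with BMDM-HG-exo 222, 251, 259 and 257. Dgat1 was the gene of the 10 that came nearest to a difference between the exosomes. All BMDM-HG-exo libraries read below all BMDM-NG-exo libraries, as 2.01% of all genes did, and below all PBS libraries, with 0.597% of all genes below both. Against BMDM-NG-exo the log2 fold change was -0.35 (95% interval -0.61 to -0.08, unadjusted p = 0.0111, adjusted p = 0.621, limma), and against PBS it was -0.39 (adjusted p = 0.0705, limma). Against both controls combined it was -0.37 (adjusted p = 0.142, limma), and DESeq2 called the last comparisons at adjusted p of 0.0316 for PBS and 0.0497 for the combined controls. Dgat2 (chr7:99153658-99182719, minus strand) had between 2 and 33 reads in a library. Its 95% interval in high glucose ran from -1.25 to 1.32, so changes within that range cannot be told from none there. With BMDM-HG-exo against PBS it was -1.17 (95% interval -2.31 to -0.03, unadjusted p = 0.0445, adjusted p = 0.278, limma), and with BMDM-NG-exo against PBS -0.51 (-1.65 to 0.63), neither of which passed the test.

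When BMDM-HG-exo was set against BMDM-NG-exo, none of the 10 genes was called by limma, edgeR or DESeq2, and 1, Dgat1, had an unadjusted p under 0.05, as did 6.54% of all genes. Over all genes, limma called 0.0139%. The intervals of the difference were narrow for the abundant genes, at -0.08 to 0.05 for Plin2, -0.05 to 0.07 for Lpl, -0.07 to 0.10 for Fabp5 and -0.06 to 0.08 for Soat1. Set against PBS and BMDM-NG-exo combined, BMDM-HG-exo likewise gave no call of these genes in limma or edgeR and 1 in DESeq2, while 0.201% of all genes were called. At an unadjusted p under 0.05 in limma there were 5 of the 10, against 10.5% of all genes. Fabp4 (0.37, adjusted p = 0.224, limma) and Fabp5 (0.21, adjusted p = 0.29, limma) were higher than the combined controls, but these hold both the low PBS and the higher BMDM-NG-exo libraries.

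A wider list of 87 genes of lipid storage and breakdown was set beside the 10, of which 65 were listed and tested. In high glucose, 6 rose and 3 fell, and the median log2 fold change was 0.02. These 9 genes are 13.8% of the list, close to the 13.3% of all genes that were called, so the count says nothing particular to the list. In the class with the most genes, triglyceride and cholesterol ester synthesis, 4 of 14 were higher and 2 of 14 lower, against 7.74% and 5.53% of all genes, and no test was made of this share. Lpin2, a phosphatidate phosphatase that makes diacylglycerol, rose from 6107 ± 280 to 7544 ± 197 (log2 fold change 0.31, adjusted p = 5.53e-07, limma), while its paralogue Lpin1 fell from 1545 ± 82.7 to 1256 ± 141 (-0.30, adjusted p = 0.00195, limma). Agpat4, an acyltransferase of the same pathway, was 0.39 higher (adjusted p = 0.00297, limma), and Acsl4 and Acsl5, which activate fatty acids, were each 0.21 higher (adjusted p = 0.00119 and 0.00408, limma). Acsl3, the acyl-CoA synthetase found on forming droplets, fell from 548 ± 50.3 to 384 ± 34.4 (-0.51, adjusted p = 0.000418, limma). Lclat1, a lysophospholipid acyltransferase, fell as well (-0.33, adjusted p = 0.0175, limma).

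Angptl4, which encodes a secreted inhibitor of lipoprotein lipase, rose from 933 ± 59.7 to 1148 ± 68.0 (0.30, adjusted p = 0.00277, limma) in high glucose, where Lpl itself was called lower under quantile normalization alone. Mitf, a transcription factor of the family that drives lysosomal genes, was 0.14 higher (adjusted p = 0.0314, limma), while its relatives Tfeb (-0.01, adjusted p = 0.944, limma) and Tfe3 (0.08, adjusted p = 0.191, limma) were not called. None of 8 genes of cytosolic lipolysis, 10 of fatty acid uptake or 4 of lysosomal cholesterol exit was called in high glucose by limma, against 13.3% of all genes. An unadjusted p under 0.05 in limma was reached by 3 of the 8, 1 of the 10 and 0 of the 4, against 3663 of all 14425 genes.

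With BMDM-NG-exo against PBS, 2 genes of the wider list rose and 1 fell (4.62% of the list, against 3% of all genes), and none was called without the variance trend. Lpin1 rose from 1300 ± 100.7 to 1676 ± 123 (0.37, adjusted p = 0.000498, limma), and Gpam, which catalyses the opening step of glycerolipid synthesis, rose from 502 ± 63.0 to 637 ± 39.8 (0.35, adjusted p = 0.0427, limma). Pnpla6, a phospholipase, fell from 2118 ± 107 to 1796 ± 82.5 (-0.24, adjusted p = 0.00984, limma). With BMDM-HG-exo against PBS, 2 rose and none fell (3.08% of the list, against 4.84% of all genes), again with none called without the trend. These were Lpin1, to 1559 ± 107 (0.26, adjusted p = 0.0115, limma), and the carrier gene Fabp3, from 188 ± 27.8 to 269 ± 29.7 (0.52, adjusted p = 0.0247, limma). Fabp3 also stood higher with BMDM-NG-exo, at 257 ± 16.5, but was not called there (0.46, adjusted p = 0.0752, limma). With BMDM-HG-exo, neither Gpam (0.04, adjusted p = 0.891, limma) nor Pnpla6 (-0.18, adjusted p = 0.0641, limma) was called against PBS. Between the exosomes none of the 65 genes was called in limma, edgeR or DESeq2, and 8 (12.3%) had an unadjusted p under 0.05 in limma, against 6.54% of all genes. In the test of the difference between the glucose effect and the effect of the exosome's origin, Lpin2 (0.33, adjusted p = 8.67e-05, limma) and Pparg, a nuclear receptor that drives lipid storage genes (-0.33, adjusted p = 0.0332, limma), were called. These were 3.08% of the list, against 4.74% of all genes. Pparg was called neither in high glucose (-0.19, adjusted p = 0.0503, limma) nor between the exosomes (0.15, adjusted p = 0.741, limma).

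**Figure D5:**
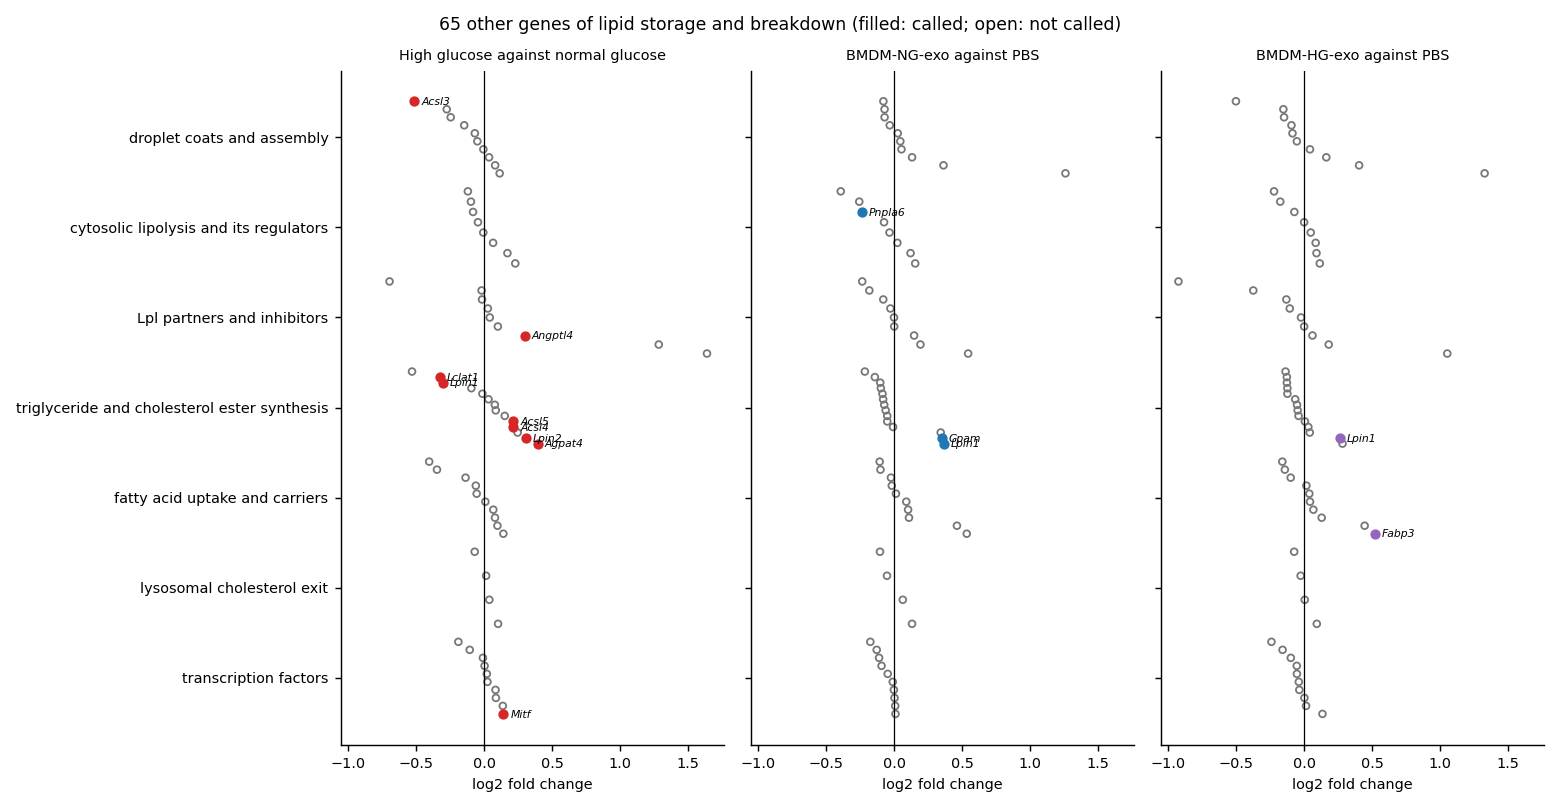
Log2 fold changes of the 65 tested genes of the wider list, in rows by class and sorted within each, for 3 comparisons. Filled and named points were called and open points were not. In high glucose 9 of the 65 genes (13.8%) are named, near the 13.3% called among all genes, and 6 of them are in the class with the most genes, triglyceride and cholesterol ester synthesis.

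The genes whose pattern over the 20 libraries was nearest to each of the 10 were found by the root mean square difference of their centred log2 values, among 11718 genes with a mean of at least 50. For Plin2, which itself varied by 0.08 on this scale, they were Fth1, Sgpl1 and Eef1a1 (0.03 to 0.04). For Lipa, which also varied by 0.08, they were Ran, Anxa2 and Arhgef6 (0.04 each). Fabp5 (own variation 0.22) was nearest to Kif3a, Rragd and Nek6 (0.09 to 0.11), and Fabp4 (0.29) to Fabp5, Rragd and Kif3a (0.14 to 0.16). Fabp5 was thus the gene nearest to Fabp4 of all those compared. Lpl (0.20) was nearest to Clec12a (0.08), Pnpla2 (0.13) to Rsrp1 (0.05) and Soat1 (0.08) to Mrtfb (0.05). Plin3 (0.12) was nearest to Psap (0.06), and the nearest genes to Dgat1 (0.14) and Dgat2 (0.69) were far from them in relation to their own variation of 0.21 and 0.88.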

How the data were processed

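The libraries hold stranded total RNA depleted of ribosomal sequence. The authors used STAR for mapping to GRCm38, FeatureCounts for gene counts and the median-ratio size factors of DESeq2 for scaling, so the deposited signal is a normalized count. The annotation used for counting is not given in the sources used here. None of the columns lacked a sample. Whole reads were recovered from the smallest step of each column (100% whole within 0.01) and used for depth and for the edgeR and DESeq2 alternatives. In 2 columns the step is close to 1, with size factors of 0.994 (BMDM-HG-exo replicate 1) and 1.008 (PBS replicate 4). The factors recomputed from the reads were the same, and the values there are not whole numbers, so scaling was applied to them too. The depth, at least 34016445 reads per library, leaves a counting error of at most 2.17% per library for 7 of the 10 genes, but of up to 6.35% for Fabp4, 6.73% for Dgat1 and 70.7% for Dgat2. No replicate pair was a copy of another (chi-square per degree of freedom 5.19 to 41.9 over 30 pairs).

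Names, positions and exon lengths came from GENCODE, in which 14421 listed genes had an entry. Log2 of the normalized count plus 1 was tested with limma 3.58.1 (lmFit, eBayes with trend) in R 4.3.3, over genes that reached a mean of 10, in separate fits of the 8 glucose and the 12 exosome experiment libraries, and in 1 fit of all 20 for the difference between effects. Alternatives varied the pseudocount, filter, scaling, trend, fold limit and fit, used edgeR 4.0.16 and DESeq2 1.42.0, and left out each library in turn. The 4 dates in the titles of the exosome experiment pair its libraries, though same-date libraries barely deviated together (mean r = 0.0118 over 12 pairs, against -0.00392 over 36 others), and the date served as a block in an alternative. Fits were tested on simulated data for high glucose and for BMDM-HG-exo against PBS. They recovered 81% and 79.3% of planted log2 changes of 1, and 62% and 60.7% of the smaller changes planted. Of the calls, 5.83% and 3.67% were false. Of the called changes of the 10 genes, only that of Fabp4 with BMDM-HG-exo against PBS (0.61) was as large as the smaller size planted. Changes as small as the others, of Plin2, Lipa, Soat1, Fabp5 and Fabp4, were not simulated. The text names all 10 genes, up to 5 called genes of the wider list in each direction with a mean of 50 or more, and the nearest genes. Mitf is named beyond that rule, after its value was seen. The genes, lists and tests were chosen with earlier results of these data known. Python 3.11.15, pandas 2.3.3, numpy 2.4.6 and matplotlib 3.10.9 were used.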

Additional observations from a re-analysis of the deposited data

Results flagged for a closer look

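Within groups of 4 libraries, 3 values of the 10 genes stood apart by Dixon's test, of 50 groups tested. Chance alone flags about 1 in 20 groups. Pnpla2 read lowest in BMDM-HG-exo replicate 3, at 4890, where the other libraries lay between 5218 and 5233. Fabp4 read highest in normal glucose replicate 6, at 488, against 378 to 384 in the others, and the high glucose call on Fabp4 is lost without it (adjusted p = 0.161, limma). Fabp5 read lowest in BMDM-NG-exo replicate 3, at 7996, against 8562 to 8576 in the others.

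For Lipa, the effect of high glucose and the effect of the exosome's origin (BMDM-HG-exo against BMDM-NG-exo) differed by 0.19 on the log2 scale in the test of that difference (adjusted p = 0.00286, limma). Under quantile normalization the difference was 0.06 and was not called (adjusted p = 0.402, limma). The effects come from separate experiments, which cannot be told apart from the agents.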

How the results depend on the processing

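Of 1404 log2 fold changes of the 10 genes under alternatives, 1316 kept their direction and their side of the threshold, 20 lost a call, 23 gained one and 45 turned in sign. None of those that turned had been called. In high against normal glucose, the signs that turned were those of Plin3 (-0.0194), Pnpla2 (-0.00497) and Dgat1 (0.00226) under quantile normalization, and of Dgat2 with a pseudocount of 5 (-0.042), in edgeR (-0.19) and in DESeq2 (-0.19). Lpl turned under quantile normalization between the exosomes (-0.0149), and Plin3 in the difference between effects (-0.00988).

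The numbers 1 and 6, shared by both glucose groups, mark nothing further, and same-numbered libraries did not deviate together (mean r = 0.00844 over 2 pairs, against -0.00121 over 14 others). With them as a replicate block, on 4 libraries, 1 of the 10 genes (Lipa), 4 genes of the wider list and 788 of all genes were called, and Lpl (0.00202) and Dgat1 (0.0371) turned in sign. The date block called 22 genes between the exosomes, and beyond Plin3 it changed no call of the 10.

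Without the variance trend, 1 of the 10, 3 of the wider list and 654 of all genes were called in high glucose, 0 of the wider list with either exosome against PBS, 95 and 295 of all genes with BMDM-NG-exo and BMDM-HG-exo, 1 gene between the exosomes, 1 against the combined controls, and 1 of the wider list and 324 of all in the difference between effects. Quantile normalization called 14 of the wider list in high glucose, 19 of all genes against the combined controls, and 2 of the 10 (Fabp5 and Soat1 in place of Lipa) and 5 of the wider list in the difference, with 322 higher and 290 lower against 472 and 213. DESeq2 called 5 of the wider list with each exosome against PBS, 25 genes between the exosomes, 136 against the combined controls, with 1 of the 10, and 3 of the 10 in the difference (Lipa, Fabp4 and Plin2). A pseudocount of 5 called 5 genes between the exosomes and 47 against the combined controls, a mean of at least 50 called 5 between the exosomes, TMM factors and edgeR 1, and the fit of all 20 libraries 0 (1058 at an unadjusted p under 0.05). With no fold limit, 4 of the 10 and 5 of the wider list were called with BMDM-NG-exo. The causes were not tested.

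With each library left out, 2 to 4 of the 10 genes were called in high glucose, 2 to 3 with BMDM-NG-exo and 2 to 4 with BMDM-HG-exo against PBS, and 1 to 2 in the difference. Of the wider list, 7 to 13, 1 to 3, 1 to 5 and 1 to 3 were called in turn. Over all genes, 1 to 7 were called between the exosomes and 1 to 204 against the combined controls. Signs turned in high glucose for Plin3 (-0.00989 to 0.0534), Lpl (-0.0245 to 0.0176), Dgat1 (-0.135 to 0.0688) and Dgat2 (-0.60 to 0.37). Between the exosomes they turned for Plin2 (-0.0353 to 0.00985), Plin3 (-0.0421 to 0.0465), Lpl (-0.00709 to 0.0257), Pnpla2 (-0.0295 to 0.0186), Fabp5 (-0.0113 to 0.0516) and Soat1 (-0.00752 to 0.0252). Pnpla2 turned against PBS with BMDM-NG-exo (-0.0219 to 0.0379) and BMDM-HG-exo (-0.0253 to 0.0246) and against the combined controls (-0.0184 to 0.0156), and Dgat1 with BMDM-NG-exo (-0.133 to 0.0141). In the difference, Plin3 (-0.026 to 0.0637) and Lpl (-0.0327 to 0.0115) turned. Depth limits Dgat2 most, which had 2 to 33 reads, and then Dgat1 (221 to 395) and Fabp4 (248 to 641), whose counting error per library was 5.03 to 6.73% and 3.95 to 6.35%.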
